A study of Mus musculus with 17 samples.

Results

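Seminiferous tubules that still looked normal in testes of *Inha* KO mice (N) were compared with testis of *Inha* WT mice by RNAseq, to describe what differed before tubules looked abnormal. The comparison used 7 of the 17 libraries of the series, 4 N libraries from 3 KO animals and 3 WT libraries from 3 WT animals, and 18060 of the 23362 genes in the table had enough counts to be tested. KO animal 79813 gave an N library from each testis, and these were summed, so that there were n = 3 animals on each side. KO animals lacked the inhibin alpha subunit, and animals of both genotypes were adults of the strain C57/Bl6 with no treatment labelled. Their age is postnatal day 48 to 52 in the sample labels and 53 to 55 in the protocol. N tubules were dissected from areas far from the tumours of testes that also held tumours, so they are the normal-looking part of a tumour-bearing organ. The labels call the control tissue WT testis and the study's methods call it WT testis tubules, so how much interstitium each side kept is not given. The remaining 10 libraries came from tumour associated tubules (TAT) and tumours (TM) of the same KO animals and were used only for levels side by side.

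Inhibin is made by Sertoli cells from the alpha subunit and an activin beta subunit, and it restrains pituitary follicle stimulating hormone and competes with activin for its receptors. Beta subunits that do not pair with the alpha subunit pair with each other as activins, which signal through SMAD2 and SMAD3. In the testis Leydig cells lie between the tubules and make testosterone and INSL3, whereas Sertoli cells lie inside the tubules and carry germ cells from spermatogonia through meiosis to spermatids.

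Levels are given as CPM (estimated counts relative to library size, scaled by the trimmed mean of M values, TMM), in the order of KO animals 79781, 79813 and 79853 for N and of animals 79783, 79811 and 79852 for WT. Library totals were 24739160 to 32382283 counts in N and 6349358 to 35454195 counts in WT. WT animal 79783 had the shallowest library and the least likeness to the other WT animals (squared correlation of CPM across genes 0.838 and 0.872, against 0.964 between those animals). Genes were tested with edgeR's quasi-likelihood test with Benjamini-Hochberg adjustment over all 18060 genes. Genes with an adjusted p below 0.05 whose levels differed by more than 1.5-fold are termed changed. Log2 fold changes are N over WT and are given ± their standard error where both stand together. At an unadjusted p under 0.05, 7.64% of all genes were higher and 7.12% lower. In bulk tissue, fewer cells of a type and less RNA per cell cannot be told apart.

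*Inha*, the targeted gene (ENSMUSG00000032968, chromosome 1, 75507077 to 75510366 of GRCm38), had 1.44, 0.472 and 0.778 CPM in N, against 58.3, 63.6 and 58.7 CPM in WT. Every N value lay below every WT value by more than the spread within either group (log2 fold change -6.17 ± 0.35, edgeR adjusted p = 1.28e-05). The labels and methods do not describe which part of *Inha* was deleted.

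In total 170 genes were changed (0.941% of the genes tested). Of these, 98 were higher in N (0.543%) and 72 were lower (0.399%). For all 170 the animals of N and WT did not overlap, while N lay above every WT animal for 13.5% of all genes tested and below for 10.1%. The median fold difference was 2.56 for the higher and 2.22 for the lower genes, and 20 higher and 22 lower genes differed by at least 4-fold. The mean level in the higher group spanned 2.39 to 2914 CPM with a median of 55.0 CPM, and 165 of the 170 genes code for proteins.

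The number of calls differed between fits. With TAT and TM in the same fit, 8 genes were changed (0.0404% of 19791 genes tested), 4 of them lower and 4 higher (0.0202% each). These were *Inha*, *Agt*, *Cyp17a1* and *Ephx1* among the lower genes and *Ccnd2*, *Bok*, *Robo4* and *Tnfrsf12a* among the higher genes, and the calls for all other genes described here were lost in that fit. With limma-voom on all 17 libraries 25 of the 170 calls were kept and 145 were lost. Those kept among the genes described here were *Inha*, *Insl3*, *Cyp17a1*, *Hsd17b3*, the 4 *Klk1b* genes, *Fabp3*, *Ptgds*, *Agt*, *Bhmt*, *Ephx1*, *Lcn2*, *Apoc1*, *Aqp2*, *Gm16434*, *Ccnd2*, *Robo4*, *S100a10*, *Ctsl* and *Obsl1*. Without WT animal 79783 the count was 546, and it was 46 without KO animal 79781, 60 without KO animal 79813, 31 without KO animal 79853 and 53 without WT animal 79852. Scaling by total library size gave 149 higher and 38 lower genes, with 79.7% of the changed genes higher against 57.6% with TMM, and a median log2 fold change of all genes of 0.15 against 0.04. All 170 genes had the same direction in each of these fits, and 27 of them (14 higher, 13 lower) were changed whichever of the 6 animals was left out.

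Leydig cell genes had the lowest median log2 fold change of the gene lists. Of 16 Leydig cell genes tested, 12 were lower and none was higher, with a median log2 fold change of -2.81 beside 0.04 for all genes tested. Their summed level was 562 to 632 CPM in N and 2918 to 5576 CPM in WT. *Insl3* alone made up most of the sum in each WT animal, so the summed level mainly follows that gene. Among them, *Insl3*, *Cyp17a1*, *Hsd17b3* and the 4 *Klk1b* genes below had been named for N in the study's text, so the list is not independent of these data. Interstitial stroma genes, from other cells outside the tubules, had 1 of 11 higher and none lower (summed level 147 to 187 CPM in N and 83.1 to 102 CPM in WT). Macrophage genes had none of 14 changed (edgeR, 4 higher and none lower at an unadjusted p under 0.05, and 0 by DESeq2 and limma-voom), at 379 to 415 CPM in N and 314 to 509 CPM in WT. The summed level of the interstitial stroma list was thus above its WT level and that of the macrophage list within it, while that of the Leydig cell list was below it. *Dcn*, the only changed stroma gene, made up a large part of the stroma sum, and 8 of the 11 stroma genes had a positive and 3 a negative log2 fold change. The part of dissection in these levels was not tested. Leaving out 1 animal gave 6 to 14 lower Leydig cell genes, 6 without KO animal 79853, 8 without KO animal 79813 or WT animal 79852 and 14 without WT animal 79783. DESeq2 gave 13, limma-voom on 17 libraries 9 and the fit with TAT and TM 1.

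*Insl3*, which encodes the hormone that guides testis descent, had 293, 235 and 261 CPM in N, against 4772, 1941 and 2029 CPM in WT (log2 fold change -3.47 ± 0.32, edgeR adjusted p = 0.000404). It was the most abundant changed gene in WT, and WT animal 79783 was above the other WT animals. Its exons overlap those of *Jak3* on the same strand, and 60.1% of the 75-base windows of its transcripts also occur in another gene. *Cyp17a1*, whose enzyme turns progestogens into androgens, had 10.4, 8.46 and 7.72 CPM in N, against 105, 216 and 144 CPM in WT (log2 fold change -4.14 ± 0.27, edgeR adjusted p = 1.99e-05). The last enzyme gene on the way to testosterone, *Hsd17b3*, had 1.36, 0.488 and 0.749 CPM in N, against 7.37, 22.6 and 14.5 CPM in WT (log2 fold change -4.16 ± 0.51, edgeR adjusted p = 0.00292). For both genes every N animal lay below the lowest WT animal, and the N animals lay close together for *Cyp17a1* but not for *Hsd17b3*. The call for *Hsd17b3* was lost without KO animal 79853 (log2 fold change -4.62 to -3.70 over the 6 animals left out).

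*Klk1b21*, *Klk1b22*, *Klk1b24* and *Klk1b27* are serine protease genes of the tissue kallikrein cluster on chromosome 7. *Klk1b21* had 0.598, 0.551 and 1.01 CPM in N, against 22.1, 59.6 and 23.3 CPM in WT (log2 fold change -5.62 ± 0.46, edgeR adjusted p = 0.000178), and *Klk1b24* had 1.16, 0.425 and 0.202 CPM in N, against 11.8, 34.5 and 12.8 CPM in WT (log2 fold change -5.15 ± 0.62, edgeR adjusted p = 0.0029). WT animal 79811 was the highest for both, and N stayed below every WT animal. *Klk1b27* had 1.64, 0.441 and 0 CPM in N, against 14.7, 34.2 and 12.5 CPM in WT (log2 fold change -5.01 ± 0.86, edgeR adjusted p = 0.0223), and *Klk1b22* had 0.399, 0.0157 and 0 CPM in N, against 4.75, 14.4 and 2.53 CPM in WT (log2 fold change -5.99 ± 1.15, edgeR adjusted p = 0.0368). KO animal 79853 was at 0 for both and KO animal 79781 was the highest in N, without overlap with WT. *Klk1b27* and *Klk1b22* lost the call without KO animal 79813 or 79853 or WT animal 79811 or 79852 (log2 fold change -6.34 to -4.36 for *Klk1b27* and -9.06 to -4.83 for *Klk1b22*). The transcripts of *Klk1b21* and *Klk1b24* are 92.7% identical and those of the other pairs 84.4% to 91.5%, and 0.384% to 14.4% of the 75-base windows of each gene's transcripts also occur in another gene. Of 12 tissue kallikrein genes tested, these 4 were lower and none was higher, and the other 8 had log2 fold changes of -1.01 to -0.18.

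The promoters of the 4 *Klk1b* genes are shown because these neighbouring copies were lower together. The stretches are from RefSeq for GRCm38.p6, all on the + strand, at chr7:44102198-44102264 (*Klk1b21*), chr7:44188107-44188173 (*Klk1b24*), chr7:44052174-44052240 (*Klk1b27*) and chr7:44112533-44112599 (*Klk1b22*). Capitals mark AAGGNCA (N is any base), which was searched on both strands. It is a looser pattern than the core of sites bound by NR5A1, a nuclear receptor of steroid-making cells, so a match need not be such a core.
Klk1b21: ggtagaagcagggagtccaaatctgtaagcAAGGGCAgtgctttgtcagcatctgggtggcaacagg
Klk1b24: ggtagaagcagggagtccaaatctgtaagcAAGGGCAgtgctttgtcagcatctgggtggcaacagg
Klk1b27: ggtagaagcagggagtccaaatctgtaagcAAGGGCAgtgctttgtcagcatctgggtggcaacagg
Klk1b22: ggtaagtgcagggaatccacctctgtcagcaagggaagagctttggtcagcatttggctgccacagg
The first 3 stretches were the same over all 67 bases and held the motif at 64, 99 and 86 bases before the annotated start, while that of *Klk1b22* differed and held no match. *Klk1b21* had a further match 247 bases before the start. In windows of 250 bases before to 50 bases after the start, AAGGNCA was present for 26.8% of lower genes (15 of 56 with a promoter entry), 30.2% of higher genes (19 of 63) and 17.4% of all genes tested, and in 20.2% of all promoters in the table. Promoters were matched by symbol for 119 of the 170 changed genes. The motif was thus about as frequent among higher as among lower genes, and a match describes the letters only.

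**Figure D1:**
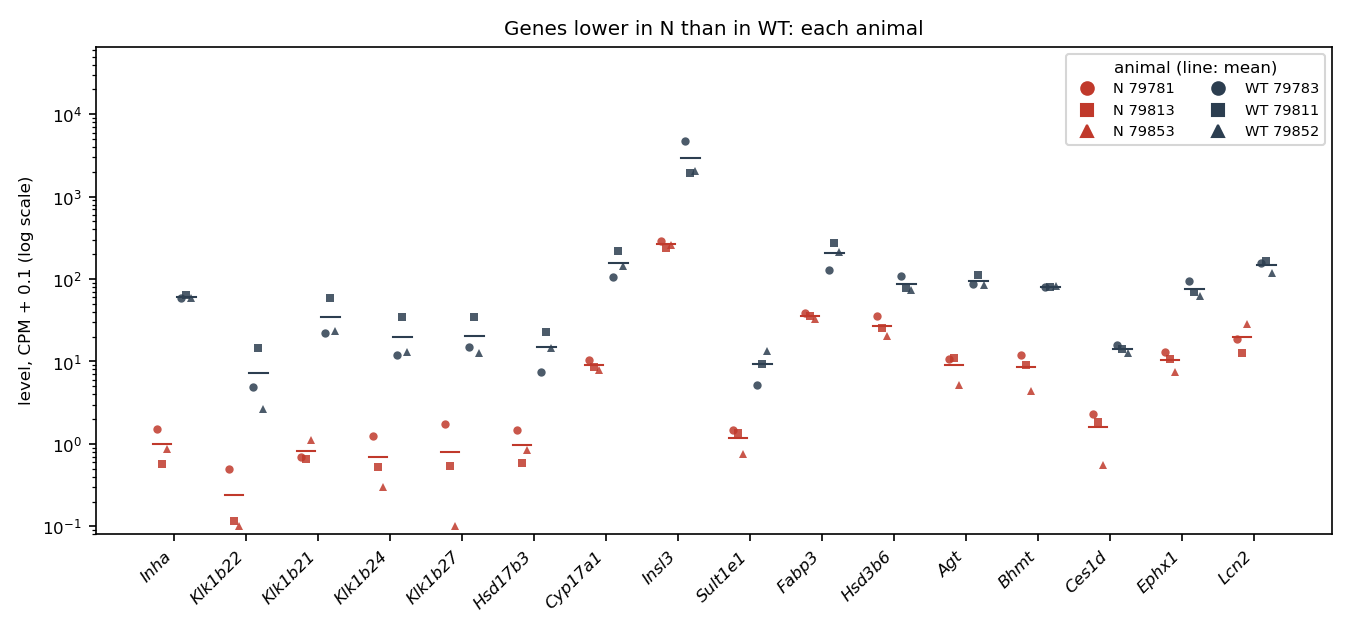
Level of 16 genes lower in N (CPM + 0.1, log scale), with 1 point per animal and a line at the mean of each group, N left of WT for each gene. No N animal overlapped a WT animal for any of these genes, and the N points of *Cyp17a1* (7.72 to 10.4 CPM) lay far below those of WT (105 to 216 CPM).

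Other enzymes of the steroid pathway did not all follow. *Hsd3b6*, a 3-beta-hydroxysteroid dehydrogenase of adult mouse Leydig cells, had 35.7, 25.4 and 20.2 CPM in N, against 109, 78.3 and 73.9 CPM in WT (log2 fold change -1.68, edgeR adjusted p = 0.00636), without overlap. *Hsd3b1*, its relative in the same cells, had 89.1, 96 and 96.8 CPM in N, against 86.3, 70.1 and 63.6 CPM in WT and was not called (log2 fold change 0.36, edgeR adjusted p = 0.308). *Cyp11a1*, which takes the first step from cholesterol, had 86.3, 96.1 and 80.8 CPM in N, against 105, 154 and 119.6 CPM in WT (log2 fold change -0.53, edgeR adjusted p = 0.167). N thus lay below WT for *Hsd3b6* and, without a call, for *Cyp11a1*, but above it for *Hsd3b1*. *Star*, which carries cholesterol into mitochondria, had 13.5, 13.7 and 27.2 CPM in N, against 21.9, 53.3 and 35.3 CPM in WT (log2 fold change -1.04, edgeR adjusted p = 0.172), and the gene of the luteinising hormone receptor, *Lhcgr*, had 6.3, 7.72 and 2.16 CPM in N, against 0.818, 4.71 and 0.915 CPM in WT (log2 fold change 1.25, edgeR adjusted p = 0.441). Neither was called. Of 16 steroid synthesis genes tested, 3 were lower (*Cyp17a1*, *Hsd17b3*, *Hsd3b6*) and 2 were higher, *Hsd17b1*, whose enzyme makes oestradiol (log2 fold change 1.82, edgeR adjusted p = 0.0228), and *Cyb5a*, whose product aids CYP17A1 (log2 fold change 0.73, edgeR adjusted p = 0.0452). The call for *Cyb5a* was lost without KO animal 79781, 79813 or 79853 or WT animal 79811 or 79852 (log2 fold change 0.66 to 0.80). *Hsd3b6* lost the call without KO animal 79853 (log2 fold change -1.94 to -1.49), and *Hsd17b1* lost it without KO animal 79781, 79813 or 79853 or WT animal 79811 or 79852 (1.59 to 2.03). None of 22 cholesterol synthesis and uptake genes was changed (edgeR, 1 higher and 3 lower at an unadjusted p under 0.05, DESeq2, 1 lower, limma-voom, 0), with a median log2 fold change of -0.14.

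Of the other Leydig cell genes *Fabp3*, *Sult1e1*, *Ptgds* and *Prlr* were lower, while 4 of the 16 were not called and 2 of the 16 had a positive log2 fold change. *Fabp3*, a fatty acid binding protein, had 39, 35.1 and 33.1 CPM in N, against 129, 273 and 213 CPM in WT (log2 fold change -2.52 ± 0.24, edgeR adjusted p = 0.000426). *Sult1e1*, which sulphates oestrogens, had 1.36, 1.24 and 0.662 CPM in N, against 5.07, 9.22 and 13.4 CPM in WT (log2 fold change -3.10 ± 0.48, edgeR adjusted p = 0.0126). N was below every WT animal for both, but *Sult1e1* lost the call without KO animal 79781, 79813 or 79853 or WT animal 79852 (log2 fold change -3.38 to -2.73). *Ptgds*, a prostaglandin D synthase (log2 fold change -1.95, edgeR adjusted p = 0.00444), and *Prlr*, the prolactin receptor (log2 fold change -1.19, edgeR adjusted p = 0.023), completed the 12 lower members. *Prlr* lost the call without KO animal 79781, 79813 or 79853 or WT animal 79852 (log2 fold change -1.26 to -1.03). Exons of *Fabp3* are overlapped by *Zcchc17* on the opposite strand.

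Metabolic and secreted-protein genes outside the Leydig cell list were also among the most reduced. *Agt*, angiotensinogen, had 10.7, 11 and 5.07 CPM in N, against 88.1, 111 and 84.9 CPM in WT (log2 fold change -3.41 ± 0.28, edgeR adjusted p = 0.000178). *Bhmt*, which remethylates homocysteine with betaine, had 12, 8.91 and 4.26 CPM in N, against 79.1, 80.4 and 81.8 CPM in WT (log2 fold change -3.27 ± 0.31, edgeR adjusted p = 0.000426). *Ephx1*, whose enzyme opens epoxides, had 13, 10.8 and 7.29 CPM in N, against 93.5, 68.7 and 62.1 CPM in WT (log2 fold change -2.85 ± 0.25, edgeR adjusted p = 0.000258). The WT animals agreed closely for *Bhmt*, and KO animal 79853 was the lowest animal for all 3 genes. *Ces1d*, a carboxylesterase, had 2.23, 1.76 and 0.461 CPM in N, against 15.9, 14.2 and 12.5 CPM in WT (log2 fold change -3.26 ± 0.48, edgeR adjusted p = 0.00976), and *Lcn2*, a siderophore-binding secreted protein, had 18.5, 12.5 and 28.5 CPM in N, against 156, 166 and 118 CPM in WT (log2 fold change -2.89 ± 0.27, edgeR adjusted p = 0.000426). These 5 genes were changed whichever animal was left out. Exons of *Bhmt* are overlapped by a gene on the opposite strand. *Agt* was the only changed gene of 7 tested in the renin angiotensin list. In the list of 18 detoxification enzymes *Ephx1* was lower and *Gsta4*, a glutathione transferase, was higher (log2 fold change 0.81, edgeR adjusted p = 0.0485), although *Gsta4* lost the call without KO animal 79781, 79813 or 79853 or WT animal 79811 or 79852 (log2 fold change 0.68 to 0.90).

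Further lower genes lost their calls when single animals were left out. *Ass1*, argininosuccinate synthase, had 1.28, 1.24 and 0.317 CPM in N, against 7.2, 8.62 and 6.19 CPM in WT (log2 fold change -2.95). *Lrg1*, a leucine-rich secreted glycoprotein, had 1.72, 1.5 and 5.33 CPM in N, against 28.5, 12.7 and 19 CPM in WT (-2.80), and *Apoc1*, an apolipoprotein, had 2.87, 6.49 and 2.39 CPM in N, against 24.6, 20.04 and 17.2 CPM in WT (-2.37). All were without overlap between N and WT. *Bpifb5*, of the family of lipid-binding BPI fold proteins, had 2.75, 2.09 and 1.9 CPM in N, against 16, 9.75 and 9.89 CPM in WT (log2 fold change -2.39). *Aqp2*, a water channel, had 13, 7.45 and 6.77 CPM in N, against 55.2, 32 and 30.2 CPM in WT (-2.10). N lay below every WT animal again, with WT animal 79783 the highest for both. The call was lost without KO animal 79781, 79813 or 79853 or WT animal 79811 or 79852 for *Ass1* (log2 fold change -3.22 to -2.55), without KO animal 79781 or 79813 or WT animal 79852 for *Lrg1* (-3.64 to -2.48), without KO animal 79781 or 79853 for *Apoc1* (-2.96 to -2.12), and without KO animal 79813 or 79853 for *Bpifb5* (-2.56 to -2.13) and *Aqp2* (-2.45 to -1.79).

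Genes of the activin subunits were higher in N. *Inhba*, the beta A subunit (ENSMUSG00000041324, chromosome 13, 16011851 to 16031621), had 56.4, 41.1 and 69.3 CPM in N, against 17.8, 13.3 and 12.3 CPM in WT (log2 fold change 1.96 ± 0.23, edgeR adjusted p = 0.00283). *Inhbb*, the beta B subunit, had 16.1, 16 and 26.7 CPM in N, against 8.84, 5.31 and 7.28 CPM in WT (log2 fold change 1.48 ± 0.30, edgeR adjusted p = 0.0435). KO animal 79853 was the highest for both and no WT animal reached N, but *Inhbb* lost the call without KO animal 79781, 79813 or 79853 or WT animal 79811 or 79852 (log2 fold change 1.18 to 1.64), whereas *Inhba* kept it whichever animal was left out. The call for *Inhba* was lost in the fit with TAT and TM (edgeR adjusted p = 0.519) and with limma-voom on 17 libraries (adjusted p = 0.608), as was that for *Inhbb*. The activin antagonists were not called. *Fstl3* had 20.1, 27.3 and 31.3 CPM in N, against 11.5, 12 and 13.7 CPM in WT (log2 fold change 1.08, edgeR adjusted p = 0.0504), and *Fst*, follistatin, had 5.22, 5.98 and 8.61 CPM in N, against 1.8, 0.507 and 1.66 CPM in WT (log2 fold change 2.40, edgeR adjusted p = 0.0664). N lay above every WT animal for both. Of 15 inhibin and activin pathway genes tested, 2 were higher (*Inhba*, *Inhbb*) and 1 was lower (*Inha*), and the receptor and SMAD genes ranged from a log2 fold change of -0.03 for *Acvr2a* to 1.81 for *Acvr2b* without a call. Of 15 genes that activin or TGF beta is known to induce, *Ctgf*, *Col1a1* and *Ccnd2* were higher and none was lower, with a median log2 fold change of 0.77. Their summed level was 339 to 387 CPM in N and 135 to 138 CPM in WT. Most of the difference between these sums came from *Ccnd2* alone, whose levels follow below. The study's text had named *Ccnd2* for N, so this list is not independent of these data. *Col1a1* and *Ccnd2* are also counted in other lists here.

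*Ccnd2*, cyclin D2, was the gene with the smallest p among the higher genes. It had 177, 175 and 172 CPM in N, against 35.4, 29.2 and 33.2 CPM in WT (log2 fold change 2.43 ± 0.15, edgeR adjusted p = 1.7e-05), and the N animals differed little from each other. Its exons are overlapped by a pair of genes on the opposite strand. *Ccnd3*, cyclin D3, was lower at 85.7, 75.2 and 84.2 CPM in N, against 199, 124 and 134 CPM in WT (log2 fold change -0.89, edgeR adjusted p = 0.0485), without overlap, and its call was lost without KO animal 79781, 79813 or 79853 or WT animal 79852 (log2 fold change -1.02 to -0.66) and with scaling by total library size. The cyclin D1 gene *Ccnd1* had 16.5, 17.6 and 20.3 CPM in N, against 2.62, 12 and 12.7 CPM in WT and was not called (log2 fold change 0.94, edgeR adjusted p = 0.312). Of 16 cyclin and G1 regulator genes tested, *Ccnd2* and *Ccnd3* were thus the changed ones. None of 20 mitotic cell cycle genes was changed (edgeR, 3 higher and none lower at an unadjusted p under 0.05, and 0 by DESeq2 and limma-voom), with a median log2 fold change of 0.05 and *Mki67* at -0.14.

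Several other higher genes belong to survival and growth factor signalling. *Bok*, a pro-apoptotic member of the BCL2 family, had 31.5, 29.9 and 31.3 CPM in N, against 6.38, 8.08 and 5.62 CPM in WT (log2 fold change 2.20 ± 0.22, edgeR adjusted p = 0.000824). *Tnfrsf12a*, the receptor of the cytokine TWEAK, had 15.2, 12.4 and 18.8 CPM in N, against 1.64, 2.48 and 1.13 CPM in WT (log2 fold change 3.11 ± 0.37, edgeR adjusted p = 0.00268). Both kept the call whichever animal was left out and in the fit with TAT and TM, but lost it with limma-voom on 17 libraries (adjusted p = 0.0504 for *Bok* and 0.108 for *Tnfrsf12a*), and they were the changed genes among 17 of the TWEAK receptor and BCL2 family list. *Kitl*, the KIT ligand of Sertoli cells, had 14.9, 14.5 and 14.7 CPM in N, against 1.31, 3.79 and 5.27 CPM in WT (log2 fold change 2.01 ± 0.39, edgeR adjusted p = 0.0376), and *Bmp3*, a bone morphogenetic protein, had 2.83, 3.1 and 2.51 CPM in N, against 0, 0.179 and 0.0872 CPM in WT (log2 fold change 4.58 ± 0.88, edgeR adjusted p = 0.0376). N was uniform for both genes, but each lost the call without KO animal 79781, 79813 or 79853 or WT animal 79811 or 79852 (log2 fold change 1.70 to 2.40 for *Kitl* and 4.32 to 5.38 for *Bmp3*). *Kitl* was the only one of 13 niche growth factor genes that was changed, and *Gdnf* had a log2 fold change of 0.13.

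*Robo4*, a receptor of endothelial cells, had 6.66, 3.39 and 9.85 CPM in N, against 0, 0.0298 and 0.0436 CPM in WT (log2 fold change 7.54 ± 0.81, edgeR adjusted p = 0.00114). WT held 2 counts in all against 724 in N, a ratio of 184 with a 95% interval of 50.7 to 1520 that covers counting error only. The other 13 endothelial cell genes tested were not called, with *Pecam1* at a log2 fold change of 1.29, *Cdh5* at 1.47 and *Kdr* at 1.52, and the list's median was 0.83. The summed level of the list was 37.98 to 47.4 CPM in N and 19.96 to 27.6 CPM in WT, and its part in the result for *Robo4* was not tested.

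**Figure D2:**
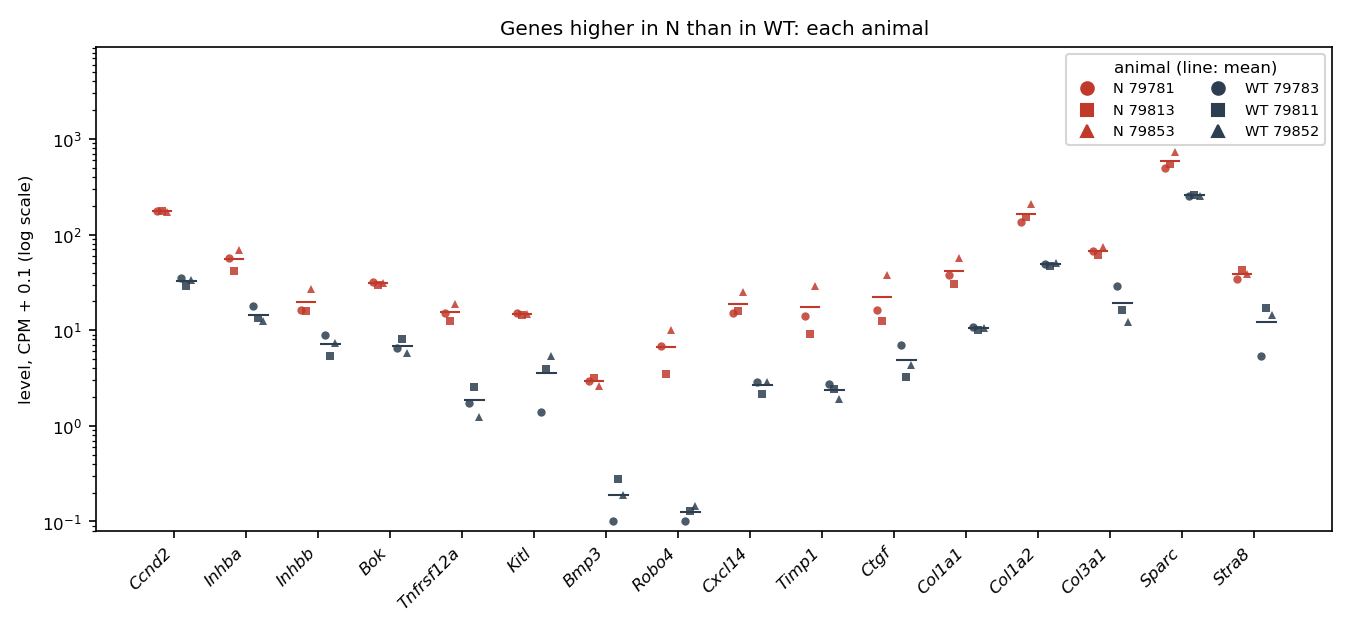
Level of 16 genes higher in N (CPM + 0.1, log scale), with 1 point per animal and a line at the mean of each group, N left of WT for each gene. No N animal overlapped a WT animal for any of these genes, and the N animals almost coincided for *Ccnd2* (172 to 177 CPM, against 29.2 to 35.4 CPM in WT).

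Of 21 extracellular matrix genes tested, 7 were higher and none was lower, all 21 had a positive log2 fold change beside 53.2% of all genes tested, and the median was 1.05. Leaving out 1 animal gave 3 to 9 higher members, 3 without KO animal 79781 or 79853 and 9 without WT animal 79783, and the fit with TAT and TM and limma-voom on 17 libraries each gave none. The summed level was 949 to 1352 CPM in N and 433 to 454 CPM in WT. *Sparc* alone made up most of this sum in each WT animal and a large part of it in N, so the sum does not stand for the whole list. *Sparc*, a matrix protein that binds collagen, had 502, 542 and 733 CPM in N, against 254, 260.4 and 256.2 CPM in WT (log2 fold change 1.21 ± 0.16, edgeR adjusted p = 0.00591). The fibrillar collagen gene *Col1a2* had 134, 151 and 209.6 CPM in N, against 48.9, 47 and 50.5 CPM in WT (log2 fold change 1.76 ± 0.18, edgeR adjusted p = 0.00087), and *Col1a1* had 38.1, 30.6 and 56.4 CPM in N, against 10.8, 9.99 and 10.4 CPM in WT (log2 fold change 2.01 ± 0.24, edgeR adjusted p = 0.0029). For all 3 the WT animals lay close together and KO animal 79853 was the highest, and each kept the call whichever animal was left out but lost it in both of those fits. *Col3a1*, also a fibrillar collagen, had 66.6, 61.4 and 74.4 CPM in N, against 29, 16.3 and 12.2 CPM in WT (log2 fold change 1.86 ± 0.27, edgeR adjusted p = 0.00922) and lost the call without KO animal 79781 or 79853 (log2 fold change 1.61 to 2.24). The remaining changed members were *Col6a2* (log2 fold change 1.88), *Col18a1* (1.46) and *Col6a1* (1.42). Their calls were lost without KO animal 79781, 79813 or 79853 or WT animal 79852 for *Col6a2* (log2 fold change 1.75 to 2.17) and *Col18a1* (1.25 to 1.54) and without KO animal 79781, 79813 or 79853 or WT animal 79811 for *Col6a1* (1.24 to 1.70). Laminin and nidogen genes of the basement membrane were not called, for example *Lamc1* at 0.37 and *Nid1* at 1.05, nor were the collagen IV genes *Col4a1* (1.25) and *Col4a2* (1.38).

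Several higher genes outside that list encode secreted or matrix proteins. *Timp1*, an inhibitor of matrix metalloproteinases on chromosome X, had 13.9, 9.01 and 28.9 CPM in N, against 2.62, 2.33 and 1.79 CPM in WT (log2 fold change 2.97 ± 0.44, edgeR adjusted p = 0.00922). *Ctgf*, a matrix-associated growth factor, had 16.1, 12.3 and 37.7 CPM in N, against 6.87, 3.16 and 4.23 CPM in WT (log2 fold change 2.28 ± 0.44, edgeR adjusted p = 0.0368). KO animal 79853 was the highest for both. *Cxcl14*, a chemokine, had 15.1, 15.8 and 25.3 CPM in N, against 2.78, 2.06 and 2.79 CPM in WT (log2 fold change 2.90 ± 0.32, edgeR adjusted p = 0.00137), and *Ccl8*, another chemokine, had 11.4, 10.2 and 18.6 CPM in N, against 3.44, 2.98 and 2.004 CPM in WT (log2 fold change 2.29 ± 0.36, edgeR adjusted p = 0.0143). N lay above every WT animal for both chemokines. *Prelp*, a small leucine-rich proteoglycan (log2 fold change 2.23, edgeR adjusted p = 0.0216), *Wisp2*, a relative of *Ctgf* (log2 fold change 2.58, edgeR adjusted p = 0.00922), and *Serpina3n*, a secreted protease inhibitor (log2 fold change 2.37, edgeR adjusted p = 0.0317), were also higher. Among the calls outside the rule for named genes were *Bgn*, *Mgp*, *Loxl2* and *Serpinh1*, chosen after their values were seen, with log2 fold changes of 1.68, 1.76, 1.501 and 1.40. These were lost without KO animal 79853 or WT animal 79852 for *Bgn* (log2 fold change 1.41 to 1.81), KO animal 79781, 79813 or 79853 or WT animal 79852 for *Mgp* (1.602 to 1.88) and *Serpinh1* (1.25 to 1.62), and KO animal 79781, 79813 or 79853 or WT animal 79811 or 79852 for *Loxl2* (1.30 to 1.72). Calls were lost without KO animal 79853 or WT animal 79852 for *Timp1* (log2 fold change 2.37 to 3.28), without KO animal 79781 or 79853 or WT animal 79811 or 79852 for *Ctgf* (1.62 to 2.58), without KO animal 79781 or 79853 or WT animal 79852 for *Ccl8* (1.96 to 2.44), without KO animal 79781, 79813 or 79853 or WT animal 79852 for *Prelp* (1.91 to 2.75), without KO animal 79781 or 79853 for *Wisp2* (2.20 to 2.82) and without KO animal 79781, 79813 or 79853 or WT animal 79811 or 79852 for *Serpina3n* (2.07 to 2.62), while *Cxcl14* kept its call.

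Promoter stretches of 3 of the higher matrix genes are shown, and these were chosen because they held a match to the SMAD box. Activin and TGF beta signal through SMAD proteins. The stretches are from RefSeq for GRCm38.p6, at chr6:4505413-4505478 (+ strand, *Col1a2*), chr1:45311288-45311334 (+ strand, *Col3a1*) and chr11:55420081-55420146 (- strand, *Sparc*), and capitals mark CAGACA, the SMAD box, or its reverse complement.
Col1a2: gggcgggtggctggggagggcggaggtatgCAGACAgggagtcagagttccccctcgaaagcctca
Col3a1: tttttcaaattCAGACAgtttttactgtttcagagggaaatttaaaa
Sparc: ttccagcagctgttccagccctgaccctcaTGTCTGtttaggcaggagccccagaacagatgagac
The matches shown lay 175, 239 and 36 bases before the annotated start, and the windows searched held a further match 65 bases before it for *Col3a1* and at base 15 from it for *Sparc*. CAGACA was searched on both strands and was present for 27% of higher genes (17 of 63 with a promoter entry), 14.3% of lower genes (8 of 56) and 16.9% of all genes tested, and in 21% of all promoters in the table. Of the 7 changed matrix genes, 6 had an entry and 3 of these, the ones shown, a match. *Col6a1*, *Col6a2* and *Col18a1* had an entry without a match, although they were also higher. A match describes the letters only, and a part of SMAD proteins in these levels was not tested. TATAAA, the TATA box, was present for 12.7% of higher and 12.5% of lower genes, against 7.85% of all genes tested.

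Some Sertoli cell genes were higher. Of 18 tested, 3 were higher and none was lower, 17 had a positive log2 fold change, and the median was 0.55, with a summed level of 3663 to 3846 CPM in N and 2064 to 2733 CPM in WT. Leaving out 1 animal gave 0 to 6 higher members, 6 without WT animal 79783, 3 without WT animal 79811 and 0 without any other animal, while DESeq2 gave 7, limma-voom on 17 libraries 1 (*Ctsl*) and the fit with TAT and TM none. *Ctsl*, cathepsin L, had 403, 457 and 553 CPM in N, against 176, 276 and 165 CPM in WT (log2 fold change 1.19, edgeR adjusted p = 0.023). *Cst12*, a cystatin, had 372, 378 and 387 CPM in N, against 234, 213 and 197 CPM in WT (log2 fold change 0.82, edgeR adjusted p = 0.0178), and *Tmem184a* had 124, 146 and 162 CPM in N, against 66.3, 82.4 and 81 CPM in WT (log2 fold change 0.91, edgeR adjusted p = 0.0251). N lay above every WT animal for all 3 genes, but each lost the call without KO animal 79781, 79813 or 79853 or WT animal 79852 (log2 fold change 1.05 to 1.47, 0.77 to 0.88 and 0.80 to 1.00 in the order named). The transcription factor gene *Sox9* was at a log2 fold change of 0.80 and *Gata4* at 0.33 without a call. Of 11 androgen responsive Sertoli genes tested, *Tubb3*, a beta tubulin, was the changed one, at 47.4, 63.6 and 52.1 CPM in N, against 23.2, 28.8 and 25.3 CPM in WT (log2 fold change 1.07, edgeR adjusted p = 0.0216), although it lost the call without KO animal 79781, 79813 or 79853 or WT animal 79852 (log2 fold change 0.94 to 1.16). *Rhox5*, an androgen target of Sertoli cells, had 26.8, 18 and 31.3 CPM in N, against 26, 37.9 and 31.7 CPM in WT and was not called (log2 fold change -0.34, edgeR adjusted p = 0.55).

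Genes known from granulosa cells, the ovarian counterpart of Sertoli cells, had 4 of 9 tested members higher, none lower and a median log2 fold change of 1.67. These were *Inhba* and *Inhbb*, *Hsd17b1* at 13, 14.5 and 17.9 CPM in N, against 5.73, 2.98 and 4.49 CPM in WT, and *Gja1*, connexin 43, at 48.4, 46.3 and 49 CPM in N, against 28, 21.7 and 25 CPM in WT (log2 fold change 0.95, edgeR adjusted p = 0.0287). N lay above every WT animal for all of them, but *Gja1* lost the call without KO animal 79781, 79813 or 79853 or WT animal 79811 or 79852 (log2 fold change 0.86 to 1.04). *Esr2*, oestrogen receptor beta, had 1.75, 0.583 and 0.346 CPM in N, against 0, 0.0895 and 0 CPM in WT (edgeR adjusted p = 0.21), and *Cyp19a1*, aromatase, had 8.77, 8.2 and 8.58 CPM in N, against 0.818, 3.07 and 3.7 CPM in WT (log2 fold change 1.67, edgeR adjusted p = 0.111). Neither was called, although N lay above every WT animal for both. Leaving out 1 animal gave 1 to 7 higher members of this list, with 7 without WT animal 79783 and 1 without any of the other animals. DESeq2 gave 6, and limma-voom and the fit with TAT and TM gave none. *Inhba* and *Inhbb* are also counted in the inhibin and activin pathway list and *Hsd17b1* in the steroid synthesis list. *Amh* and *Fshr* are members of the Sertoli cell list too, so the granulosa cell list is not independent of these lists.

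**Figure D3:**
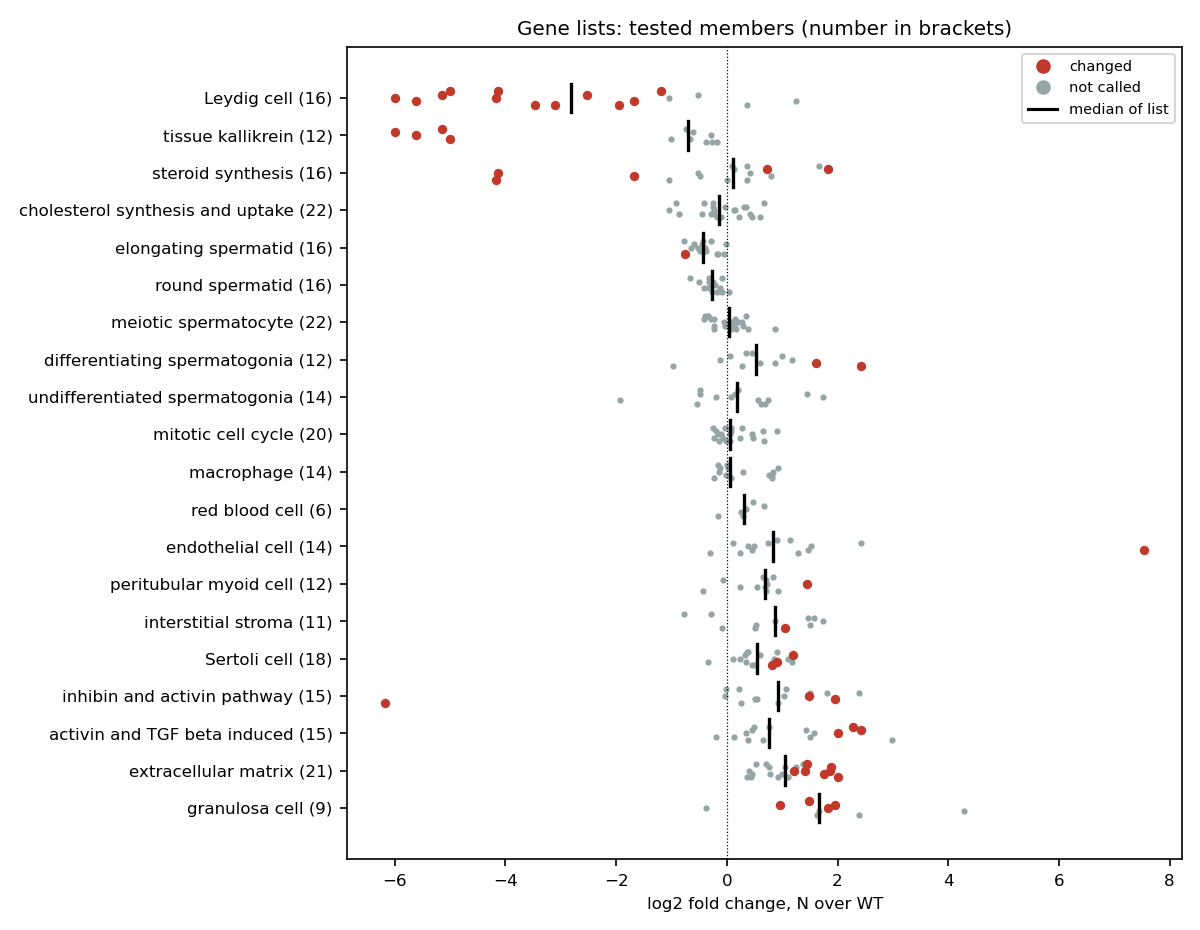
Log2 fold change (N over WT) of the tested members of 20 gene lists, with 1 point per gene, red where changed, a black line at the list's median and the number tested in brackets. Of the Leydig cell genes 14 lie left of 0 (median -2.81), all 21 extracellular matrix genes lie right of it (median 1.05), while meiotic spermatocyte genes centre on 0 (median 0.03).

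Lists of other cell types gave few calls. Among 12 peritubular myoid cell genes only *Tagln*, a smooth muscle actin-binding protein, was changed, at 27.4, 18.4 and 29.3 CPM in N, against 9.66, 9.72 and 8.15 CPM in WT (log2 fold change 1.45, edgeR adjusted p = 0.0216), and it lost the call without KO animal 79781 or 79853 or WT animal 79852 (log2 fold change 1.31 to 1.63). Its relative in the list *Acta2*, smooth muscle actin, had 138, 112 and 91.6 CPM in N, against 45, 67.3 and 66.9 CPM in WT (log2 fold change 0.92, edgeR adjusted p = 0.0565). *Dcn*, decorin, was the changed one of the 11 interstitial stroma genes, at 62.2, 69.3 and 98.9 CPM in N, against 29.5, 43.2 and 37.7 CPM in WT (log2 fold change 1.05, edgeR adjusted p = 0.0427), and lost the call without KO animal 79781, 79813 or 79853 or WT animal 79852 (log2 fold change 0.82 to 1.18). N lay above every WT animal for these 3 genes. None of 6 red blood cell, 6 lymphocyte and mast cell or 2 adipocyte and mesothelium genes was changed (edgeR, 3, 2 and 0 higher and none lower at an unadjusted p under 0.05, DESeq2, 1 lymphocyte and mast cell gene higher, limma-voom, 0). Epididymis genes had 11 tested, with *Aqp2* lower and *Wfdc10* higher (log2 fold change 0.99, edgeR adjusted p = 0.0143). *Wfdc10* lost the call without KO animal 79781 or 79813 or WT animal 79852 (log2 fold change 0.90 to 1.08). Of 13 S100 and annexin genes *S100a10* was higher (log2 fold change 1.47, edgeR adjusted p = 0.00823) and lost the call without KO animal 79813 or 79853 (log2 fold change 1.32 to 1.603). Of 11 cathepsins *Ctsl* alone was changed, and of 11 immediate early genes none was (edgeR, 3 higher and none lower at an unadjusted p under 0.05, DESeq2, 2 higher, limma-voom, 0).

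Few germ cell genes were changed. None of 14 undifferentiated spermatogonia genes was changed (edgeR, 0 in either direction at an unadjusted p under 0.05, and 0 by DESeq2 and limma-voom), with a median log2 fold change of 0.18. *Sall4*, a transcription factor of spermatogonia, had 1.95, 6.33 and 7.03 CPM in N, against 4.75, 3.37 and 1.7 CPM in WT (log2 fold change 0.68, edgeR adjusted p = 0.627). *Zbtb16*, which maintains undifferentiated spermatogonia, had 1.79, 3.24 and 4.43 CPM in N, against 3.93, 2.21 and 2.31 CPM in WT (log2 fold change 0.20, edgeR adjusted p = 0.908), and *Gfra1*, the GDNF co-receptor, had 3.71, 4.63 and 2.88 CPM in N, against 3.27, 2.98 and 1.18 CPM in WT (log2 fold change 0.62, edgeR adjusted p = 0.648). N and WT overlapped for all 3 genes. At these low levels a moderate difference could not be told from the spread of 3 animals. Among 12 differentiating spermatogonia genes *Ccnd2* and *Stra8* were higher. *Stra8*, which retinoic acid induces before meiosis, had 34.2, 43 and 38.3 CPM in N, against 5.24, 16.9 and 14.2 CPM in WT (log2 fold change 1.61 ± 0.32, edgeR adjusted p = 0.0417), and its call was lost without KO animal 79781, 79813 or 79853 or WT animal 79852 (log2 fold change 1.30 to 1.91). *Kit*, the receptor of differentiating spermatogonia, was at a log2 fold change of -0.97 without a call.

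Genes of spermatids had small negative differences, and those of meiosis centred near 0. None of 22 meiotic spermatocyte genes was changed (edgeR, none higher and 3 lower at an unadjusted p under 0.05, and 0 by DESeq2 and limma-voom) and the median log2 fold change was 0.03. None of 16 round spermatid genes was changed (edgeR, none higher and 3 lower at an unadjusted p under 0.05, DESeq2, 1 lower, limma-voom, 0), 15 of them had a negative value, and the median was -0.27. Of 16 elongating spermatid genes 1 was lower and 11 were lower at an unadjusted p under 0.05 (edgeR, DESeq2, 4 lower, limma-voom, 0). All 16 had a negative value, with a median of -0.44 and a summed level of 28785 to 37309 CPM in N and 37696 to 44888 CPM in WT. *Tssk6*, a testis-specific kinase of spermatids, was the changed one of these, at 527, 388 and 429 CPM in N, against 778, 788 and 702 CPM in WT (log2 fold change -0.75, edgeR adjusted p = 0.0422), without overlap. It lost the call without KO animal 79781, 79813 or 79853 or WT animal 79811 or 79852 (log2 fold change -0.90 to -0.66) and with scaling by total library size, and its exons are overlapped by *Ndufa13* and *Yjefn3* on the opposite strand. Protamine genes were not called, with *Prm1* at -0.17 and *Prm2* at -0.48.

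Because the allele was made by gene targeting, genes beside *Inha* on chromosome 1 were counted. Of 37 other genes tested within 1 Mb, 1 was changed (2.70%), which was *Obsl1*, a cytoskeletal adaptor gene, at 16.6, 14.2 and 16.4 CPM in N, against 7.53, 3.01 and 4.23 CPM in WT (log2 fold change 1.75, edgeR adjusted p = 0.0404). N lay above every WT animal, and the call was lost without KO animal 79781, 79813 or 79853 or WT animal 79811 or 79852 (log2 fold change 1.47 to 2.13). Within 5 Mb 2 of 84 were changed and within 20 Mb 4 of 300 (1.33%), beside 0.941% of all genes. The 4 genes were *Obsl1*, *Wdfy1* (log2 fold change -1.37), *Ugt1a7c* (-1.45) and *Bok*, of which *Wdfy1* and *Ugt1a7c* were chosen after their values were seen. The call for *Wdfy1* was lost without KO animal 79781 or 79853 (log2 fold change -1.69 to -1.14), and that for *Ugt1a7c* without KO animal 79781 or 79853 or WT animal 79811 or 79852 (-1.65 to -1.27). The median log2 fold change within 1 Mb was 0.0036. The unlabelled point far above the rest in the plot of distance from *Inha* is *Prkag3*, at 0.598, 0.409 and 1.58 CPM in N, against 0, 0 and 0 CPM in WT, which was not called (edgeR adjusted p = 0.124) and whose fitted fold change is no bound because WT was at 0.

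**Figure D4:**
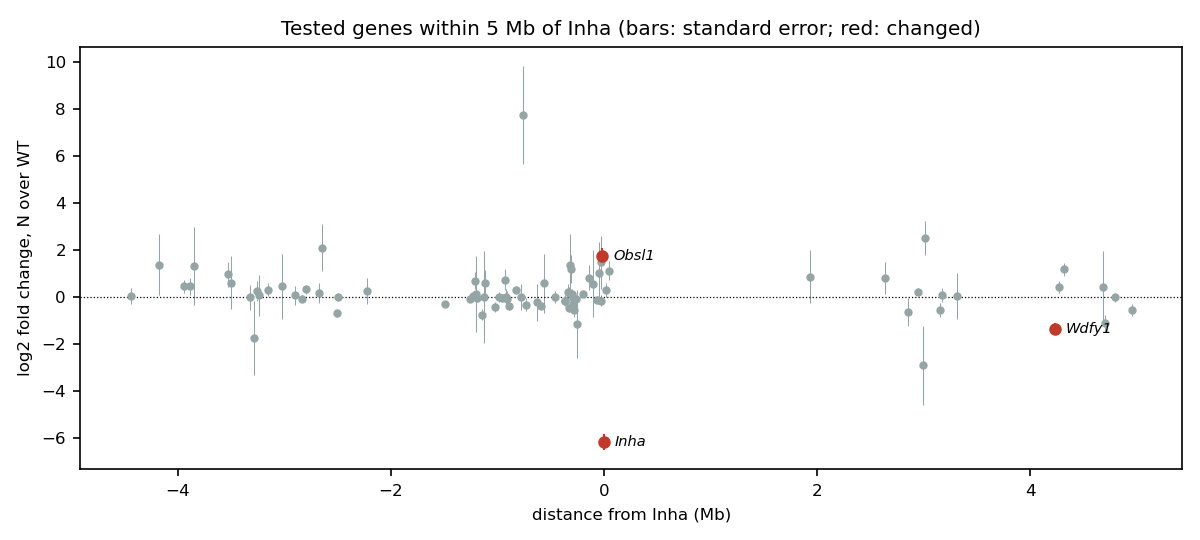
Log2 fold change (N over WT, bars show the standard error) of the genes tested within 5 Mb of *Inha*, by distance from it in Mb. *Inha* lies at -6.17, and *Obsl1* (1.75) and *Wdfy1* (-1.37) are the other changed genes, in red.

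Changed genes on chromosome X were all in 1 direction. Of 754 tested, 12 were changed (1.59%) and all 12 were higher, while 158 of 17079 autosomal genes were changed (0.925%), 86 of them higher. At an unadjusted p under 0.05 (edgeR), 96 genes of chromosome X were higher and 36 lower, against 1276 higher and 1233 lower on the autosomes. The median log2 fold change was 0.16 for chromosome X and 0.04 for the autosomes, and these values rest on TMM scaling. *Timp1* was the only one of the 12 that the rule for named genes took, and *Tmsb4x*, *Rpl39*, *Rps4x* and *Bgn*, chosen after their values were seen, had log2 fold changes of 0.95, 1.06, 1.66 and 1.68. Calls were lost without KO animal 79781, 79813 or 79853 or WT animal 79852 for *Tmsb4x* (log2 fold change 0.77 to 1.16) and *Rpl39* (0.97 to 1.16) and without KO animal 79781 or 79853 or WT animal 79852 for *Rps4x* (1.24 to 1.96).

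The most extreme fitted fold changes belonged to copies of other genes. *Gm16434* had 0 in all N animals and 4.58, 4.77 and 1.44 CPM in WT, at least 145-fold lower against a floor of 3 counts over the group. *Gm6676* had 0 in all WT animals and 2.83, 1.21 and 3.14 CPM in N, at least 43.5-fold higher against the same floor. The transcripts of these genes are identical over 2066 bases. Their sum was 2.85, 2.48, 0 and 3.36 CPM without TMM in the N libraries and 4.47, 4.53 and 1.42 in the WT libraries, so the sum overlapped where each gene alone did not, and both calls are uncertain. *Rnu3b1*, a U3 small nucleolar RNA, had 11, 11.4 and 4.87 CPM in N and 0 in WT, at least 198-fold higher. With *Rnu3b3* added, the sum was 23.7, 6.01, 34.9 and 10.7 CPM without TMM in the N libraries and 0, 0 and 6.17 in WT. In this sum WT animal 79852 lay above testis 1 of KO animal 79813. The transcript of *Rnu3b1* is identical to that of 3 other genes, and no sum over all copies was made, so the call for *Rnu3b1* is uncertain too. *Gm8922* (12.8, 3.02 and 12 CPM in N) and *RP23-307D8.12* (5.62, 2.43 and 5.24 CPM in N) were at 0 in WT, at least 158-fold and 80.7-fold higher. In testis 1 of KO animal 79813 both were at 0 as in WT. For both genes 100% of the 75-base windows also occur in another gene, and *RP23-307D8.12* shares an identical transcript with 1 other gene. No sum with these copies was made, so both calls are uncertain. *Gm16434* lost the call without KO animal 79853 (edgeR adjusted p up to 0.0693), *Gm6676* without KO animal 79781, 79813 or 79853 or WT animal 79811 or 79852 (up to 0.269) and *RP23-307D8.12* without KO animal 79781 or 79853 (up to 0.0995). All 5 genes at 0 in a group shared at least 50% of their 75-base windows with another gene, as did 5.88% of the 170 changed genes and 4.57% of all genes with a transcript. Exons of 41 of the 170 genes were overlapped by another gene, 33 of them on the opposite strand, and since the sources used here do not say whether counting used the strand, reads of such pairs cannot be told apart.

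The testes of KO animal 79813 were sequenced separately and gave a measure of the difference within an animal. The median absolute log2 difference between them was 0.286 over the changed genes and 0.285 over all genes tested (pseudocount 0.5 CPM). For 167 of the 170 changed genes both testes lay on the same side of every WT animal. The 170 genes were called with the sum of these testes against the same WT animals. This count was thus largely fixed by that choice and is no separate support, and the share over all genes tested was not counted. With only testis 1 the count of changed genes was 119 and with only testis 2 it was 197.

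Levels in TAT and TM of the same KO animals are given beside those of N, scaled over 12 summed libraries. All are set beside the same WT libraries. *Ccnd2* had 191, 189 and 185 CPM in the N regions, 809, 344 and 836 CPM in the TAT regions, 1071, 974 and 1028 CPM in the TM regions, against 38.2, 32.4 and 36.3 CPM in WT. *Inhba* had 60.8, 44.4 and 74.9 CPM in the N regions, 319.7, 70.3 and 912 CPM in the TAT regions, 1338, 1073 and 2366 CPM in the TM regions, against 19.3, 14.7 and 13.5 CPM in WT. Both were higher in every TM animal than in any N animal. *Robo4* had 7.18, 3.65 and 10.6 CPM in the N regions, 7.81, 5.99 and 10.4 CPM in the TAT regions, 6.58, 6.8 and 4.33 CPM in the TM regions, against 0, 0.0331 and 0.0477 CPM in WT, so that N, TAT and TM overlapped for this gene and WT stood apart. Among lower genes, *Cyp17a1* had 11.2, 9.13 and 8.34 CPM in the N regions, 10.5, 12.9 and 20.2 CPM in the TAT regions, 24.9, 38.3 and 4.52 CPM in the TM regions, against 113, 240.1 and 158 CPM in WT, and *Insl3* had 316, 254 and 282 CPM in the N regions, 183, 298 and 158 CPM in the TAT regions, 102, 158 and 20.3 CPM in the TM regions, against 5154, 2152 and 2222 CPM in WT. TM had the lowest mean for *Insl3* and the widest range of the KO regions for *Cyp17a1*. *Agt* had 11.5, 11.9 and 5.48 CPM in the N regions, 43.8, 12.6 and 35.5 CPM in the TAT regions, 54.8, 71.1 and 63.9 CPM in the TM regions, against 95.1, 123 and 93 CPM in WT, and here N was the lowest region, while *Bhmt* had 12.9, 9.62 and 4.61 CPM in the N regions, 11.2, 14.4 and 3.34 CPM in the TAT regions, 9.5, 11.5 and 4.72 CPM in the TM regions, against 85.4, 89.1 and 89.6 CPM in WT, with overlap among the KO regions.

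**Figure D5:**
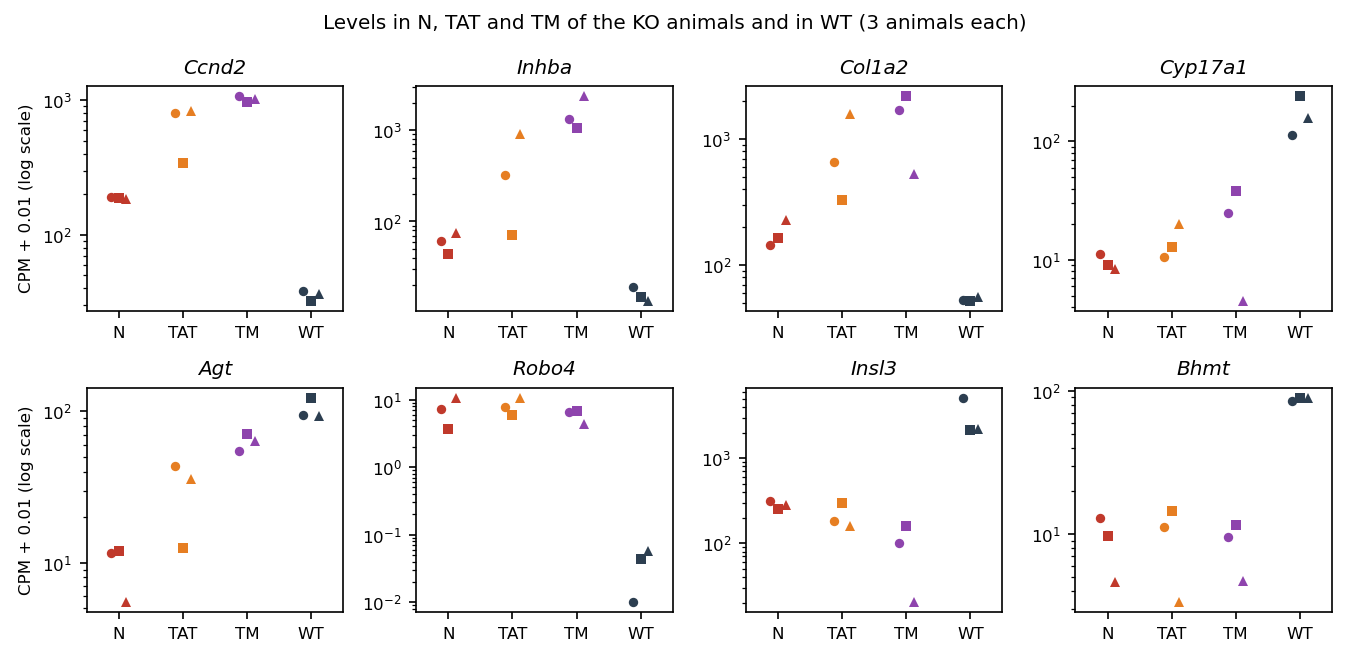
Level of 8 genes (CPM + 0.01, log scale) in N, TAT and TM of the 3 KO animals and in the 3 WT animals, with 1 point per animal and the same marker for the regions of a KO animal. *Ccnd2* was 4-fold or more above WT in every KO region, *Agt* was lowest in N, and *Robo4* was near 0 in WT only.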

How the data were processed

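RNA of testis pieces was primed at the poly(A) tail and sequenced by Illumina. The values the authors deposited are estimated counts (expected counts) per gene, not normalized. The reads were aligned by STAR (2.6.1d) against GRCm38 within nf-core/rnaseq. For counting, Salmon is named in the study's methods and featureCounts (Subread 2.0.1) in the submitters' processing notes, which also list limma, MultiQC 1.12, FastQC 0.11.9 and Picard 2.23.9. The annotation release, the use of strand and any removal of duplicates by their molecular identifiers were not given in these sources.

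Counts of both testes of KO animal 79813 were added and all values rounded, giving 6 libraries of 6349355 to 61798383 counts. The test was that of edgeR 4.0.16 under R 4.3.3 (TMM, filterByExpr, glmQLFit, glmQLFTest, Benjamini-Hochberg adjustment). Nothing in the labels says more of the replicates than that they are separate animals. Alternatives were a fit of all 12 summed libraries, limma-voom (limma 3.58.1) on 17 libraries, the pieces as replicates, DESeq2 1.42.0, its size factors, total library size, other filters on low counts, no fold threshold, counts thinned to the smallest summed library, either testis of KO animal 79813 alone, and each animal left out. Positions came from GENCODE release M21 (23213 of 23362 genes matched), and promoters from RefSeq.

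The comparison, the 32 gene lists and the tests were chosen with earlier results of these data known. Lists are described by counts and medians, without a test. Named genes were *Inha*, *Inhba*, *Insl3*, *Cyp17a1*, *Hsd17b3*, *Klk1b21*, *Klk1b22*, *Klk1b24*, *Klk1b27*, *Ccnd2*, *Sall4* and *Zbtb16*, the 20 highest and the 20 lowest changed genes by fold change (mean of at least 1 CPM in the higher group, no overlap), in each list the members with the smallest p (at most 4), and all genes within 1 Mb of *Inha*. Genes named beyond this rule, most of them list members that complete a pathway, were chosen after their values were seen.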

Additional observations from a re-analysis of the deposited data

How the results depend on the processing

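All 170 changed genes kept their direction in every alternative in which they were tested, and no call of a named gene reversed. Of the 114 genes that the naming rule took without a call, 17 changed sign in some alternative, among them *Sall4* (log2 fold change -0.03 to 1.06) and *Zbtb16* (-0.49 to 0.49). The number of changed genes (170, with 98 higher and 72 lower) was 8 (4 higher, 4 lower) in the fit of all 12 summed libraries, 38 (9 and 29) with limma-voom on 17 libraries, 446 (229 and 217) with the pieces as replicates, 727 (364 and 363) with DESeq2, where the adjusted p of 3156 genes was NA, 314 (179 and 135) without a filter on low counts, and 61 (36 and 25) with counts thinned to the smallest summed library. Scaling by total library size gave 149 higher and 38 lower genes. Leaving out 1 animal gave 31 to 546 changed genes, 17 to 333 higher and 14 to 213 lower. The thinned and left-out fits hold fewer counts or animals by construction, yet the count rose to 546 without WT animal 79783. The cause of these and the other shifts was not tested. With size factors of DESeq2, a minimum of 1 CPM, no fold threshold or 1 testis of KO animal 79813, all counts stayed within 1.5 times those given. The median log2 fold change changed sign in some alternatives for the lists of detoxification enzymes, renin angiotensin, epididymis, macrophage, meiotic spermatocyte, mitotic cell cycle, steroid synthesis and undifferentiated spermatogonia genes, and in none for the other 24 lists. No paired analysis was possible because the KO and WT animals share no number and no label ties a KO animal to a WT animal. The shallow library of WT animal 79783 limits the lowest levels that could be compared.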
